A study of Bos taurus with 6 samples.

Results

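The genes described here encode the nuclear pore and the receptors that carry proteins and RNA through it, measured in single bovine morulae exposed to FIDAS-5. This compound blocks MAT2A, which synthesises S-adenosylmethionine, the methyl donor of the cell. Members were taken by symbol: NUP, IPO or XPO followed by a digit, symbols starting with KPNA, KPNB, TNPO or RANBP, and RAN, AAAS, SEH1L and TPR. The symbols with a row of their own in at least 1 library numbered 43, of 13683 symbols in all.

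Bovine embryos were produced by in vitro fertilization and kept under 5% oxygen in a semi-defined medium with bovine serum albumin. The MAT2A-inhibited group received 20 µM FIDAS-5 and the control group 0.1% DMSO, the solvent of FIDAS-5, from 72 h after insemination (day 3, 8 to 16 cells) to 144 h (day 6). Each group held 3 polyA RNA-seq libraries, each made from 1 whole morula. Whether the treated embryos also received DMSO is not given, and the labels do not say that embryos of a group came from separate cultures. The p-values therefore measure the spread between these embryos. The libraries held 46400000 to 59800000 fragments, a depth recovered from the whole-fragment steps of the deposited bounds. Values are in FPKM, fragments scaled to transcript length and library size, so levels of genes of different length can be set side by side.

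The nuclear pore is a ring of scaffold proteins set in the nuclear envelope, with a channel filled by nucleoporins rich in phenylalanine-glycine repeats. Importins bind cargo in the cytoplasm and let it go when they meet RAN bound to GTP in the nucleus, whereas exportins bind cargo together with RAN-GTP. Scaffold nucleoporins of the Y complex also sit at kinetochores in mitosis. In cleavage-stage embryos nuclei divide rapidly, and pores and receptors are first supplied by the oocyte before the embryo's own genome takes over.

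Of the 43 members, 39 had a row of their own in all 6 libraries and 37 passed the filter of at least 1 FPKM in at least 3 of the 6 libraries. KPNA7 stayed below the filter. NUP210, an integral membrane nucleoporin, was listed at 0 in every library, and a 0 in such a table can be a failed estimate. IPO4, KPNA1, NUP35 and TNPO3 shared a merged row with a neighbouring gene in some libraries and were not tested. NUP37 shared a row with CCDC53 in all 6 libraries and has no value of its own. Further nucleoporins and receptors, such as NUP98, NUP107, KPNA5, IPO9 and XPO5, were not analysed here. The 37 tested members include no gene with a 0 in any library.

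All 8 embryo markers were found in every library, and POU5F1 was at 254.8 to 376.4 FPKM in MAT2A-inhibited morulae and at 312.3 to 431.0 FPKM in controls. The groups did not overlap for 3 of the 8, against 13.4% of the 7319 genes tested. DPPA3, a maternal factor, was at 453.5 to 574.5 FPKM in MAT2A-inhibited morulae and 660.9 to 881.3 FPKM in controls. NANOG was at 1.16 to 1.88 FPKM in MAT2A-inhibited morulae and 2.54 to 20.3 FPKM in controls, and SOX2 at 45.2 to 50.8 FPKM in MAT2A-inhibited morulae and 27.6 to 41.5 FPKM in controls. The part of these differences in the results was not tested. The trophectoderm keratin KRT8 varied most among controls, with 4.49 FPKM in control 2 and 400.5 FPKM in control 3. The cumulus list (7 of 7 genes with a row) summed to 4.998 to 11.3 FPKM in MAT2A-inhibited morulae and to 9.45 to 52.8 FPKM in controls, with VIM at 0 in 4 of the 6 libraries and HAS2 at most at 0.0935 FPKM. The highest control sum came from PTGS2, at 46.5 FPKM in control 3. The sperm list (3 of 3 genes) summed to 5.13 to 11.5 FPKM in MAT2A-inhibited morulae and 2.53 to 4.79 FPKM in controls, so this low sum separates the groups, and its part in the results was not tested. Of the blood pair, HBB was at 0 in every control and HBA was at 63.1 to 132.4 FPKM over all libraries. The Y-linked transcripts EIF1AY and DDX3Y were found in MAT2A-inhibited morulae 2 and 3 and were at 0 in the other 4 libraries. In whole embryos, fewer cells of a kind and less RNA per cell cannot be told apart.

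The question of the design was which genes differ after MAT2A inhibition. No member passed limma with Benjamini-Hochberg adjustment over the 7319 genes tested at 0.05, where 3 genes in all passed, 0.041% of those tested. An unadjusted limma p below 0.05 was found for 1 of 37 members, NUP160, against 6.64% of all genes tested (3.7% higher and 2.94% lower in MAT2A-inhibited morulae). Fold changes are given as differences of log2(FPKM + 1), MAT2A-inhibited over control, and understate low genes. The log2 fold change was above 0 for 22 of 37 members, against 54.2% of all genes. The median was 0.23 over the members and 0.04 over all genes tested. With a filter of a mean of at least 5 FPKM, 30 members were left with a median of 0.03, and all genes also had 0.03. Without MAT2A-inhibited replicate 1 the members' median was 0.07, and without control replicate 3 it was 0.10.

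In 7 of the 37 members the 3 MAT2A-inhibited values all lay above the 3 controls, and in 0 they all lay below. Over all genes tested the groups did not overlap for 13.4%, with MAT2A-inhibited higher for 8.27% and lower for 5.18%. The 7 were NUP160, NUP85, NUP62, NUP50, TNPO2, RANBP3 and RANBP10. They come from 6 different role groups, and 3 of the 7 were below 6 FPKM in every library.

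**Figure D1:**
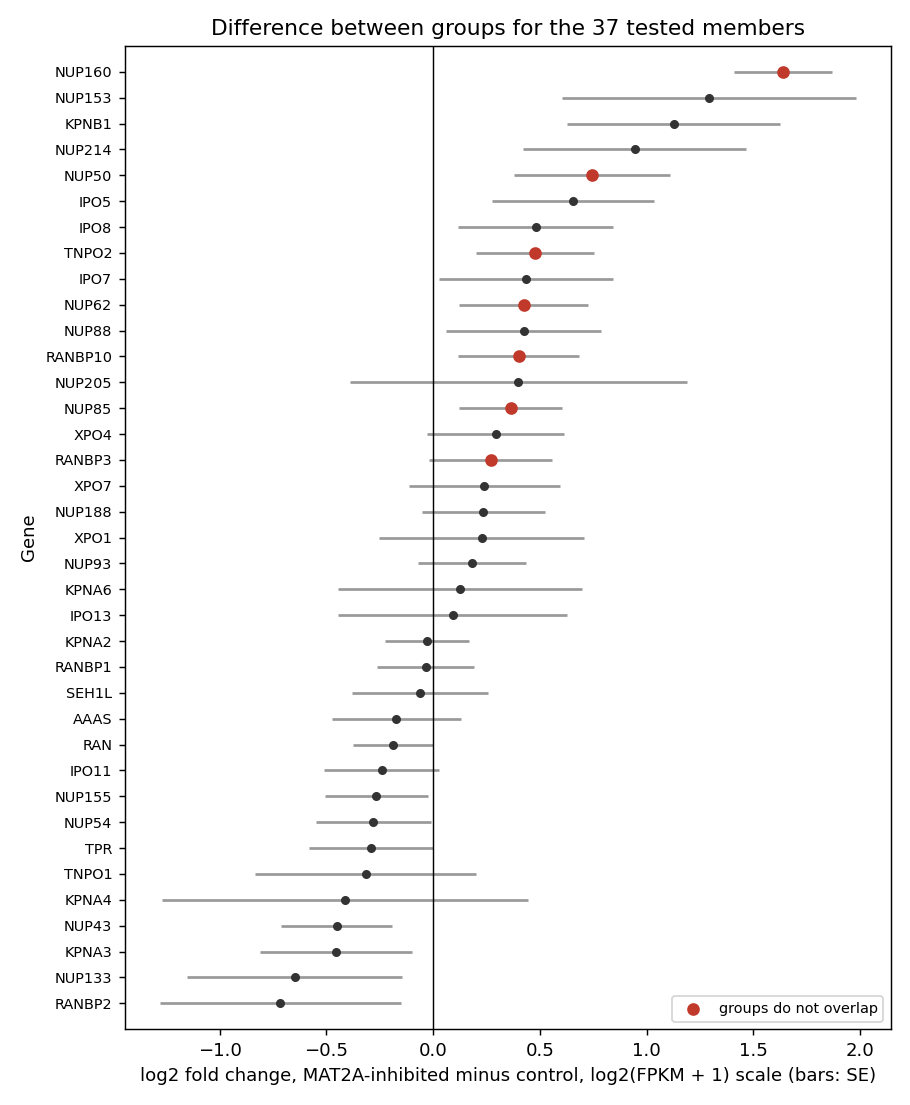
Log2 fold change of each tested member, as the difference of log2(FPKM + 1) between MAT2A-inhibited and control morulae, with its SE as a bar (n = 3 morulae per group). NUP160 stands highest at 1.64, RANBP2 lowest at -0.71, and red points mark the 7 members whose groups do not overlap.

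The Y complex forms the outer rings of the pore, and its measured members were NUP160, NUP133, NUP85, NUP43 and SEH1L. NUP160, a large subunit of its arms (bosTau8 chromosome 15, 78730994 to 78774453 as the files give it) had 59.9, 59.3 and 57.3 FPKM in MAT2A-inhibited morulae, against 20.0, 14.7 and 20.5 FPKM in controls. All 3 treated embryos lay close together and well above every control. The means were 58.8 ± 1.36 and 18.4 ± 3.24 FPKM (SD, n = 3 each), a ratio of 3.20. Its log2 fold change of 1.64 ± 0.23 (SE) had a 95% interval of 1.104 to 2.17 and a limma adjusted p of 0.153. The exact two-sided permutation p of 0.1 is the smallest that 3 against 3 can give. Over 18 alternatives the fold change ran from 1.49 to 1.72 and the limma adjusted p from 0.0904 to 0.763, so it never passed.

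The NUP160 value was as high in MAT2A-inhibited morula 1, where EIF1AY and DDX3Y were at 0, as in morulae 2 and 3. These Y-linked transcripts were found in no control, and their part in the NUP160 difference was not tested. The assembled locus of NUP160 differed by less than 300 bases at either end between libraries. Each of the 3 MAT2A-inhibited FPKM values exceeded its own deposited upper bound, the highest of which was 56.9 FPKM, while the 3 control values lay within theirs. The bounds are therefore no measure of error for this gene.

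The fold changes of its partners in the complex ran from -0.65 to 0.36, and none passed the test. NUP133, which anchors the stem of the complex, had 19.4, 23.4 and 37.3 FPKM in MAT2A-inhibited morulae, against 53.3, 69.4 and 18.2 FPKM in controls. Controls 1 and 2 held the highest values and control 3 the lowest of all 6, so the groups overlap (log2 fold change -0.65 ± 0.50 SE). NUP85, another arm subunit, had 31.2, 29.4 and 26.5 FPKM in MAT2A-inhibited morulae, against 25.3, 24.3 and 18.1 FPKM in controls. The groups do not overlap, but the highest control lay close under the lowest treated value (0.36 ± 0.24, and 0.22 without control replicate 3). NUP43, a small propeller-shaped subunit, had 35.4, 53.0 and 38.3 FPKM in MAT2A-inhibited morulae, against 53.1, 72.1 and 48.7 FPKM in controls (-0.45 ± 0.26, and -0.29 without control replicate 2). SEH1L, shared with a nutrient-sensing complex at the lysosome, had 58.1, 78.4 and 84.4 FPKM in MAT2A-inhibited morulae, against 60.7, 119.3 and 60.3 FPKM in controls (-0.06 ± 0.32). Its sign turned without control replicate 2, to 0.26, and without MAT2A-inhibited replicate 1, to 0.10.

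Ratios within a library do not depend on how libraries are scaled. NUP160 over NUP85 was 1.92, 2.02 and 2.17 in MAT2A-inhibited morulae, against 0.793, 0.605 and 1.14 in controls. NUP160 over NUP43 averaged 1.44 ± 0.292 in MAT2A-inhibited morulae and 0.334 ± 0.115 in controls, and NUP160 over SEH1L 0.822 ± 0.184 and 0.264 ± 0.122 (SD, n = 3 each, in the same order of groups). For these 3 partners and for NUP133, every treated ratio was above every control ratio. NUP160 was named for its small p, so the ratios are a description without a test.

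**Figure D2:**
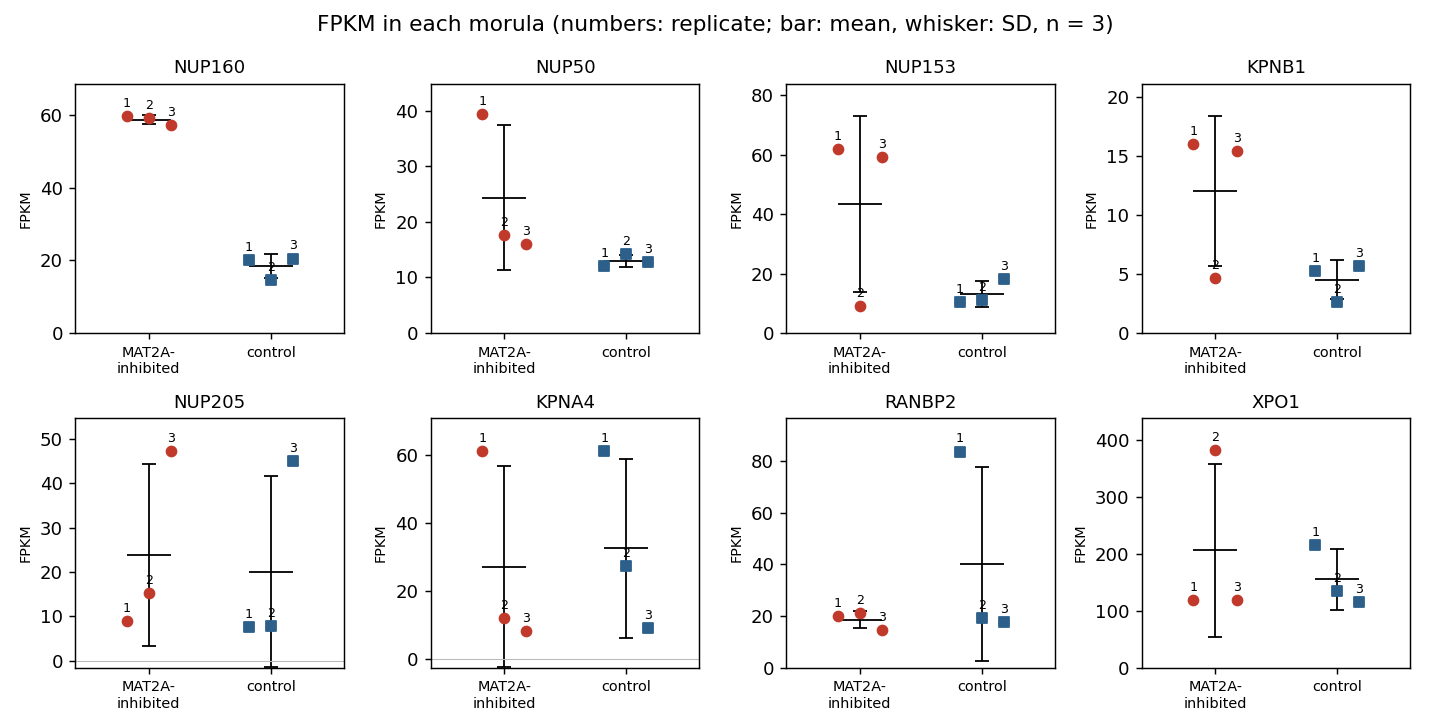
FPKM of 8 members in each morula on linear axes that start at 0, or below it where a whisker does, with replicate numbers, the group mean as a bar and the SD as a whisker (n = 3 per group). NUP160 separates the groups at 57.3 to 59.9 against 14.7 to 20.5 FPKM, whereas NUP205, KPNA4, RANBP2 and XPO1 each have 1 or 2 high morulae and groups that overlap.

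The inner ring holds the pore to the membrane. NUP155, which touches the membrane, had 31.1, 24.1 and 22.5 FPKM in MAT2A-inhibited morulae, against 29.6, 35.8 and 28.2 FPKM in controls. NUP93, which links the ring to the channel, varied little, from 14.1 to 21.0 FPKM over all 6 libraries. NUP205 had 9.06, 15.3 and 47.2 FPKM in MAT2A-inhibited morulae, against 7.53, 7.81 and 45.0 FPKM in controls. Replicate 3 of each group stood far above its group's other embryos, and the means of 23.9 ± 20.5 and 20.1 ± 21.5 FPKM differed by far less than the SD. NUP188, the paralogue of NUP205, was at 0.947 to 1.75 FPKM in every library. NUP35 had a value of its own in 4 libraries, at 96.1 and 178.1 FPKM in MAT2A-inhibited morulae 1 and 2, against 117.4 and 99.3 FPKM in controls 1 and 3. The fold changes of the 4 tested inner ring members ran from -0.27 to 0.40.

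In the central channel, NUP62 had 10.6, 11.1 and 11.3 FPKM in MAT2A-inhibited morulae, against 8.74, 5.49 and 10.3 FPKM in controls. The groups do not overlap, by a narrow gap between control 3 and MAT2A-inhibited morula 1 (0.42 ± 0.30, limma adjusted p = 0.802). Without control replicate 2, the lowest, the log2 fold change was 0.19. NUP54, its partner with the same kind of repeats, had 62.3, 69.9 and 102.5 FPKM in MAT2A-inhibited morulae, against 74.6, 94.9 and 113.6 FPKM in controls. NUP54 sums 2 loci. That on chromosome 6 gave 58.8 to 107.3 FPKM and that on chromosome 29, with a span of 1874 bases, 3.49 to 9.13 FPKM. Reads shared between them would be uncertain.

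On the cytoplasmic face, NUP88 had 93.7, 46.9 and 38.1 FPKM in MAT2A-inhibited morulae, against 37.9, 51.8 and 34.8 FPKM in controls. Its partner NUP214, which takes part in export, had 1.75, 5.74 and 5.80 FPKM in MAT2A-inhibited morulae, against 3.77, 0.985 and 0.864 FPKM in controls (log2 fold change 0.94 ± 0.52). NUP88 was high in treated morula 1, the treated embryo in which NUP214 was lowest. RANBP2, the filament protein that also acts as a SUMO ligase, had 19.9, 21.1 and 14.8 FPKM in MAT2A-inhibited morulae, against 83.7, 19.3 and 17.8 FPKM in controls. Control 1 alone stood apart, and the other 5 embryos lay between 14.8 and 21.1 FPKM. AAAS, named for triple A syndrome in people, ranged from 7.54 to 13.1 FPKM.

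In the nuclear basket, the fibrous structure on the inner side, NUP153 had 61.8, 9.11 and 59.1 FPKM in MAT2A-inhibited morulae, against 10.3, 11.0025 and 18.1 FPKM in controls. MAT2A-inhibited morulae 1 and 3 were more than 3 times above the highest control, while morula 2 was the lowest of all 6 embryos. The NUP153 value of morula 2 is uncertain, with deposited bounds of 7.95 and 7241.88 FPKM. Its assembled locus spanned 81383 bases, against 70964 to 72032 bases in the other libraries. The log2 fold change was 1.29 ± 0.69 (limma adjusted p = 0.772), and with single libraries left out it ran from 0.84 (without MAT2A-inhibited replicate 1) to 2.16 (without MAT2A-inhibited replicate 2). NUP50, which helps to take import complexes apart, had 39.4, 17.6 and 16.1 FPKM in MAT2A-inhibited morulae, against 12.1, 14.2 and 12.7 FPKM in controls. All 3 treated values lay above the controls, but morula 1 carried most of the difference (0.74 ± 0.37, limma adjusted p = 0.753). Without that embryo the log2 fold change was 0.35. TPR, the coiled-coil scaffold of the basket, had 15.3, 14.4 and 9.24 FPKM in MAT2A-inhibited morulae, against 17.7, 16.8 and 13.1 FPKM in controls.

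**Figure D3:**
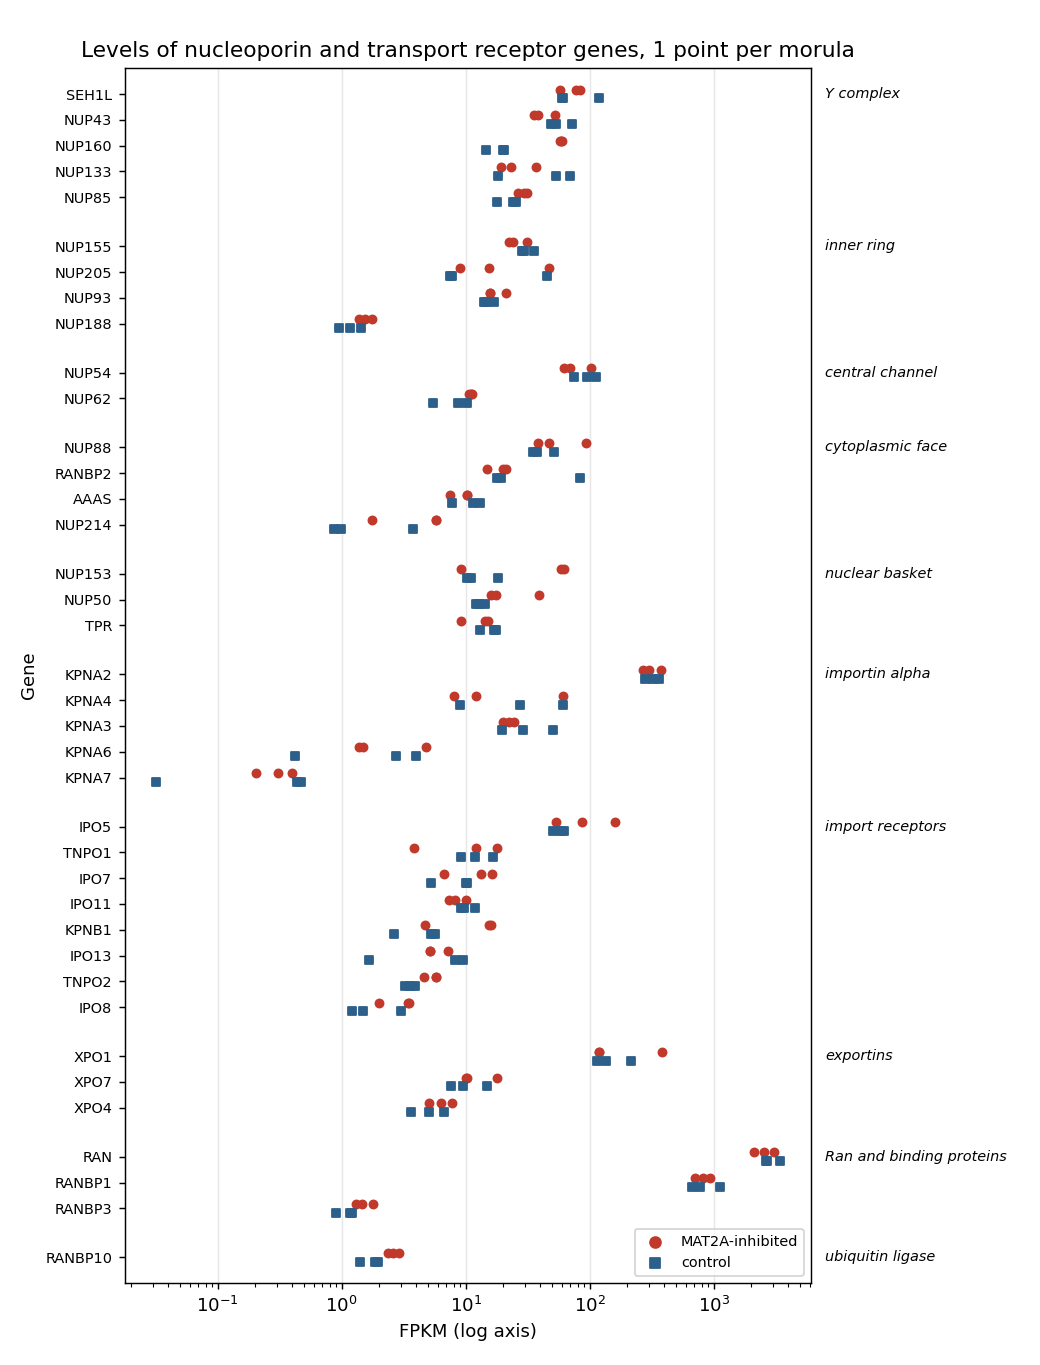
FPKM on a log axis in each of 3 MAT2A-inhibited (red circles) and 3 control (blue squares) morulae for the 38 members with a row in all 6 libraries and a value above 0, grouped by role. RAN lies at 2118 FPKM or more in every morula, KPNA7 at 0.468 FPKM or less, and for most genes the circles and squares overlap.

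Importin alpha proteins are the adaptors that read the classical nuclear localization signal and bind importin beta. KPNA2 was the leading form, at 302.9, 377.5 and 271.4 FPKM in MAT2A-inhibited morulae, against 326.6, 360.02 and 281.4 FPKM in controls. The groups interleave, and the 95% interval of the log2 fold change (-0.03 ± 0.20, SE) was -0.49 to 0.43. Its highest value was 1.39 times its lowest, the smallest such ratio among the 38 members with values above 0 in all 6 libraries. KPNA2 took 77.3%, 90.8% and 90.1% of the summed FPKM of KPNA2, KPNA3, KPNA4, KPNA6 and KPNA7 in MAT2A-inhibited morulae, against 77.5%, 81.6% and 90.7% in controls. Replicate 1 of each group had the lowest share.

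That lower share went with KPNA4. It had 61.3, 12.2 and 8.13 FPKM in MAT2A-inhibited morulae, against 61.3, 27.4 and 9.01 FPKM in controls, so replicate 1 of each group reached the same level. KPNA4 took 15.6% of the sum in MAT2A-inhibited morula 1 and 14.6% in control 1, and between 2.70% and 6.21% in the other 4. KPNA3, its close relative, had 22.2, 24.6 and 19.9 FPKM in MAT2A-inhibited morulae, against 29.02, 50.7 and 19.5 FPKM in controls. KPNA6 had 4.83, 1.39 and 1.49 FPKM in MAT2A-inhibited morulae, against 4.01, 2.77 and 0.419 FPKM in controls. KPNA1 ranged from 11.9 to 18.9 FPKM in the 5 libraries with a row of its own. KPNA7, known in cattle as the form of oocytes and cleavage-stage embryos, had 0.398, 0.203 and 0.309 FPKM in MAT2A-inhibited morulae, against 0.438, 0.468 and 0.0319 FPKM in controls. At day 6 it was the lowest of the importin alpha genes in each library.

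**Figure D4:**
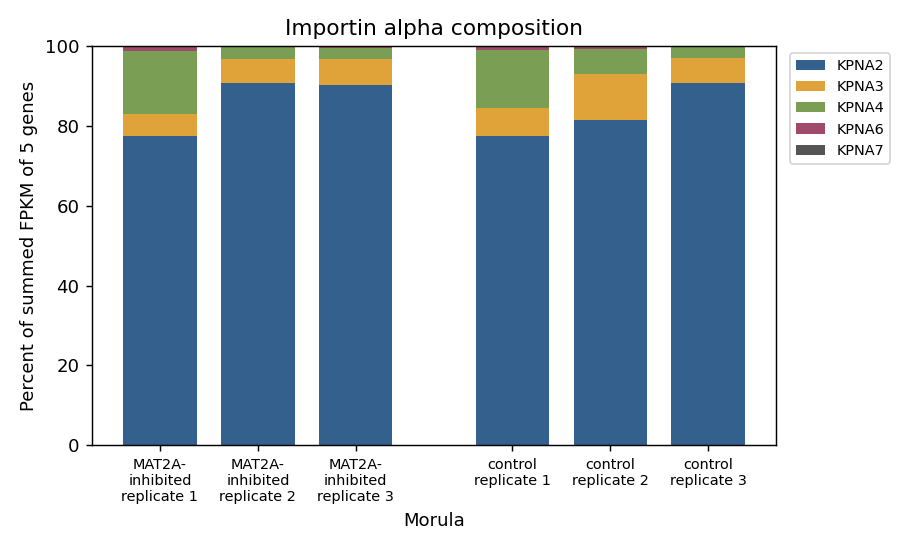
Share of each of 5 importin alpha genes, in percent of their summed FPKM, in each MAT2A-inhibited (left) and control (right) morula. KPNA2 makes up 77.3% to 90.8% of every bar, and KPNA4 takes 15.6% and 14.6% in replicate 1 of the 2 groups.

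Receptors of the importin beta family bind cargo or the alpha adaptor and cross the channel. KPNB1, the partner of importin alpha, had 16.0, 4.67 and 15.4 FPKM in MAT2A-inhibited morulae, against 5.28, 2.64 and 5.67 FPKM in controls. MAT2A-inhibited morulae 1 and 3 were high, as they were for NUP153, and morula 2 lay within the range of the KPNB1 controls. The means were 12.04 ± 6.38 and 4.53 ± 1.65 FPKM (SD, n = 3 each), with a log2 fold change of 1.13 ± 0.50 and a limma adjusted p of 0.746. With single libraries left out it ran from 0.85 (without control replicate 2) to 1.65 (without MAT2A-inhibited replicate 2). IPO5, which imports ribosomal proteins and histones, was the most abundant receptor for import, at 87.3, 53.4 and 159.9 FPKM in MAT2A-inhibited morulae, against 58.7, 51.1 and 62.5 FPKM in controls. MAT2A-inhibited morulae 1 and 3 were again the 2 highest (0.66 ± 0.38), and without replicate 3 the log2 fold change was 0.25. IPO7, which carries ribosomal proteins and, with KPNB1, the linker histone, had 16.3, 6.65 and 13.4 FPKM in MAT2A-inhibited morulae, against 5.29, 10.2 and 10.05 FPKM in controls.

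Among the transportins, which recognise RNA-binding proteins, TNPO2 had 5.76, 5.74 and 4.59 FPKM in MAT2A-inhibited morulae, against 3.25, 3.55 and 3.89 FPKM in controls. The groups do not overlap (0.48 ± 0.27, limma adjusted p = 0.780). TNPO1, its paralogue, had 12.1, 17.9 and 3.84 FPKM in MAT2A-inhibited morulae, against 9.12, 11.9 and 16.6 FPKM in controls, with treated morula 3 the lowest. TNPO3, which imports splicing factors, had a row of its own in MAT2A-inhibited morulae 2 and 3, at 15.2 and 28.5 FPKM. The rest of the import receptors were IPO8, a paralogue of IPO7 (1.22 to 3.52 FPKM over the 6 libraries), IPO11, which carries ubiquitin-conjugating enzymes (7.39 to 11.9 FPKM) and IPO13, which works in both directions (1.65 to 9.55 FPKM). IPO4 ranged from 0.948 to 2.87 FPKM in the 4 libraries with its own row. Of the 8 tested import receptors 6 had fold changes above 0 (median 0.45), against 1 of 4 importin alpha genes (median -0.22), 2 of 5 Y complex genes (median -0.06) and 54.2% of all genes (median 0.04).

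XPO1, the main exportin for proteins with a leucine-rich signal, had 118.7, 382.4 and 118.7 FPKM in MAT2A-inhibited morulae, against 216.2, 135.0 and 114.9 FPKM in controls. MAT2A-inhibited morula 2 alone stood apart, and it was also the treated embryo with low NUP153 and KPNB1, though its NUP153 value is uncertain. The log2 fold change of 0.23 ± 0.48 turned to -0.33 without that embryo. XPO7 had 17.8, 10.2 and 10.3 FPKM in MAT2A-inhibited morulae, against 14.9, 9.56 and 7.57 FPKM in controls. XPO4, which exports the translation factor eIF5A, had 7.83, 6.29 and 5.10 FPKM in MAT2A-inhibited morulae, against 5.06, 6.67 and 3.599 FPKM in controls. The groups overlap for each of the 3 exportins.

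RAN, the GTPase that gives transport its direction, was the most abundant member, at 2118, 3051 and 2539 FPKM in MAT2A-inhibited morulae, against 2683, 3428 and 2646 FPKM in controls. It was rank 47 by mean level among 13185 symbols (log2 fold change -0.19 ± 0.19, 95% interval -0.63 to 0.25). The row labelled RAN lies on chromosome 10 and spans 1049 bases, whereas the RefSeq table of the assembly ARS-UCD2.0 puts RAN on another chromosome with a longer gene. Reads of near-identical copies may be counted in it, its FPKM lay outside its deposited bounds in all 6 libraries, and its level is uncertain. RANBP1, which helps RAN to hydrolyse GTP, had 704.3, 929.8 and 822.7 FPKM in MAT2A-inhibited morulae, against 779.8, 664.3 and 1119.0 FPKM in controls. It sums 2 loci on chromosome 17, at 237.5 to 424.8 and at 413.3 to 790.8 FPKM. In every library 1 of the 2 RANBP1 loci exceeded its own deposited upper bound. In MAT2A-inhibited morula 3, for example, 573.8 FPKM stood against a bound of 295.2 FPKM, so the level of RANBP1 is also uncertain. RANBP3, a cofactor of XPO1, had 1.47, 1.31 and 1.80 FPKM in MAT2A-inhibited morulae, against 1.22, 0.895 and 1.17 FPKM in controls. RANBP10, named for RAN binding but known as a subunit of a ubiquitin ligase, had 2.90, 2.37 and 2.60 FPKM in MAT2A-inhibited morulae, against 1.98, 1.42 and 1.87 FPKM in controls. Neither pair of groups overlaps, and the log2 fold changes were 0.27 ± 0.29 and 0.40 ± 0.28.

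Levels were ranked over the 39 members with a row in all 6 libraries. RAN was first and RANBP1 second in each of the 6 morulae, and their ranges did not overlap, though the levels of both are uncertain. KPNA2 came next in the mean, but XPO1 exceeded it in MAT2A-inhibited morula 2, so these neighbours are not separated by their spread. NUP54, IPO5 and SEH1L followed, with overlapping ranges. At the other end KPNA6, IPO8, RANBP10, NUP188 and RANBP3 changed places between libraries, and KPNA7 and NUP210 were the last in each. NUP35, at 96.1 to 178.1 FPKM in the 4 libraries with a row of its own, was not ranked.

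The spread between embryos differed greatly among members. In 12 of the 38 members with values above 0 the highest morula was less than 2 times the lowest, among them KPNA2, NUP93, NUP155 and RAN. In 9 members it was more than 5 times the lowest: KPNA7, KPNA6, KPNA4, NUP153, NUP214, NUP205, KPNB1, IPO13 and RANBP2. The median SD within groups on the log2 scale was 0.40 over the 37 tested members and 0.40 over all genes tested. For NUP160 this SD was 0.18.

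Other genes of the pathway were taken from a list of 26 symbols outside the naming rule, of which 16 were tested. None passed limma after adjustment over all genes, 1 had an unadjusted p below 0.05, and 9 had a log2 fold change above 0, with a median of 0.05. That gene was NXT2, a cofactor of messenger RNA export on chromosome X. It had 36.01, 36.6 and 15.6 FPKM in MAT2A-inhibited morulae, against 72.5, 105.4 and 60.5 FPKM in controls, so that every treated value lay below every control (-1.46 ± 0.38, limma adjusted p = 0.688). With single libraries left out NXT2 ran from -1.66 to -1.07. The Y-linked transcripts EIF1AY and DDX3Y were found in MAT2A-inhibited morulae 2 and 3 and in no control. Embryo sex is thus unevenly spread over the groups, and its part in the NXT2 difference was not tested. RANGAP1, the activator of the RAN GTPase, had 2.78, 7.22 and 34.4 FPKM in MAT2A-inhibited morulae, against 2.29, 1.59 and 3.75 FPKM in controls. Treated morula 3 alone was high (1.59 ± 0.76), and without it the log2 fold change was 0.70. With MAT2A-inhibited morula 1, where EIF1AY and DDX3Y were at 0, as the lone treated library, the log2 fold change was -1.08 for NXT2 and 0.14 for RANGAP1. A lone treated embryo has no spread of its own. GLE1, which acts in messenger RNA export at the cytoplasmic face, had 17.6, 20.4 and 18.7 FPKM in MAT2A-inhibited morulae, against 13.9, 11.8 and 17.7 FPKM in controls (0.38 ± 0.26).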

How the data were processed

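For each library the authors deposited a table of Cufflinks genes, with FPKM and its lower and upper bounds. The submitters' processing notes name TopHat2 2.0.14, Cufflinks 2.2.1 and the build bosTau8. Neither settings nor annotation is given in the sources used here. Identifiers made by Cufflinks show that libraries were assembled separately, so neighbouring genes can merge in some libraries. No scaling between libraries is recorded.

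FPKM was summed per symbol. Of 13295 symbols in all 6 libraries, 13185 had an OK status and no merged locus. The filter kept genes that reached 1 FPKM in at least 3 libraries. The log2(FPKM + 1) values were fitted in R 4.3.3 by limma 3.58.1, two-sided, with its mean-variance trend, without a block, and with Benjamini-Hochberg adjustment over all genes tested. The test was tried on simulated data with independent normal errors around the fitted means. Such data hold no shared cultures and no failed estimates, so the trial does not cover them. All 43 symbols matched the RefSeq gene table. Depth came from lower bounds of unannotated loci of 100 to 300 bases, of which 98.8% to 99.9% were whole fragments within 0.05. Counts per gene were not recovered, so errors are the spread between embryos. Of 261 member rows, 32 had an FPKM outside their own bounds, and the bounds served as no error.

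Members, role groups and lists were chosen with earlier results of these data known. Named are the 10 members with the smallest p, those whose groups do not overlap, the 8 most abundant, the most abundant of each role group, every KPNA gene and the 3 other pathway genes with the smallest p. Further members were given after their values were seen. Alternatives were 3 other scalings, a pseudocount of 0.1, other filters, no genes with a 0, array weights, no trend, a block on replicate number, 1 locus per symbol and libraries left out.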

Additional observations from a re-analysis of the deposited data

How the results depend on the processing

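No member passed limma under any of the 18 alternatives run over all genes. The count over all genes, 3 in the fit described, was 1 without a filter on low values, 1 with a mean of at least 5 FPKM, 0 without genes with a 0, 5 with array weights and 0 without the 2 libraries with Y-linked transcripts. With the replicate number as a block it was 1. Leaving out each replicate gave 0 to 8, with 0 for each MAT2A-inhibited replicate and 8 without control replicate 3. The members' median log2 fold change (0.23) was 0.031 with a mean of at least 5 FPKM, 0.069 to 0.30 with each replicate left out, and 0.35 without the 2 libraries with Y-linked transcripts. Members whose groups do not overlap (7) numbered 4 of 30 with a mean of at least 5 FPKM, 13.3% of members against 13.6% of all genes. With each replicate left out, where fewer values overlap by construction, they numbered 9 to 15. That was 24.3% to 40.5% of members, against 20.7% to 27.0% of all genes. They made up 40.5% without MAT2A-inhibited replicate 2, against 24.4% of all genes, and 24.3% without MAT2A-inhibited replicate 1, against 24.3%. They numbered 23 of 36 without the 2 libraries with Y-linked transcripts, against 48.7% of all genes, in a comparison of 1 treated embryo with 3 controls, where any value outside the range of the controls counts. Without RAN, NUP54 and RANBP1, an alternative chosen after seeing the data, they numbered 7. None of these genes was among the 7, so that count could not change.

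The sign of some fold changes turned, and the cause was not tested. KPNA2 was at 0.017 with quantile normalization. With array weights RANBP1 was at 0.0037, XPO1 at -0.072, SEH1L at 0.12 and KPNA6 at -0.25. With each replicate left out, KPNA2 ran from -0.16 to 0.075, RANBP1 from -0.20 to 0.18, SEH1L from -0.23 to 0.26, KPNA4 from -1.25 to 0.21, KPNA6 from -0.41 to 0.50 and XPO1 from -0.33 to 0.51. Without the 2 libraries with Y-linked transcripts, XPO1 was at -0.33 and KPNA4 at 1.26. The replicate numbers were not taken as pairs in the fit described. Deviations of same-numbered embryos correlated by 0.05, 0.10 and 0.19, and those of differently numbered embryos by -0.21 to 0.10. The same-numbered embryo had the highest correlation for every control and for MAT2A-inhibited replicates 2 and 3, though all these correlations were low. For control replicate 2 it was nearly a tie, at 0.103 with MAT2A-inhibited replicate 2 and 0.102 with MAT2A-inhibited replicate 1. MAT2A-inhibited replicate 1 correlated best with control replicate 2. Whether the numbers mark pairs was not tested. Counts per gene were not recovered, so the counting error of low genes is unknown.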
